A study of Caenorhabditis elegans with 12 samples.

Results

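The genes described here were *hlh-30*, the *C. elegans* member of the TFEB family of transcription factors, and 9 genes of the autophagy machinery, *unc-51*, *bec-1*, *atg-9*, *atg-18*, *atg-7*, *lgg-1*, *lgg-2*, *sqst-1* and *epg-5*. They were found by their symbols in the deposited gene tables and make up 10 of 21882 genes. All 10 passed the filter on low counts, which kept 15728 genes. In Ensembl's WBcel235 annotation 5 of them lie on chromosome IV, 3 on V and 2 on II.

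RNA was sequenced from whole *C. elegans* at the mid-L4 larval stage, with 4 samples in each of 3 groups, and each sample held the progeny of a separate egg lay. The neuronal rescue group carried the *raga-1(ok386)* deletion together with an extrachromosomal array that expresses *raga-1* cDNA and mCherry from the *rab-3* promoter. The second group was the *raga-1(ok386)* mutant without the array, and the third was the wild type strain N2. RAGA-1 is the worm RagA GTPase, which activates TORC1 when amino acids are plentiful. All 3 groups fed on HT115 bacteria with the empty L4440 vector. The *rab-3* promoter is pan-neuronal but, by the study's own account, also leaks into the intestine, and an extrachromosomal array can be lost from some cells. Rescue animals were picked by their fluorescence whereas mutant and wild type animals were washed from plates, so picking and the array cannot be told apart. Of the collection days 3 were shared by all groups.

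In autophagy a double membrane closes around cytoplasm and carries it to the lysosome. The UNC-51 kinase starts the process, a lipid kinase complex with BEC-1 marks the membrane, and ATG-9 and ATG-18 help it to grow. ATG-7 begins the reactions that fix the ubiquitin-like proteins LGG-1 and LGG-2 to the membrane, SQST-1 brings cargo to it and EPG-5 helps the finished autophagosome to meet the lysosome. When TORC1 is active it holds UNC-51 and TFEB-type factors in check, mainly by phosphorylation, which RNA levels do not record. HLH-30 enters the nucleus when TORC1 is low, and it activates autophagy and lysosome genes in the worm.

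Total estimated counts per sample ran between 14287510, in wild type replicate 1, and 35619305, in mutant replicate 2. The next lowest total was 20320091, in mutant replicate 3. Levels are given as CPM, the count scaled to the size of the library (TMM). *raga-1* itself had 805 to 891 CPM in rescue samples, 1.42 to 1.76 CPM in mutant samples and 61.8 to 70.2 CPM in wild type samples, so each sample had the level of *raga-1* that its label implies. Wild type samples lay farther apart than the others, with a mean distance over all genes of 43.6 in rescue, 46.0 in the mutant and 80.7 in wild type (Euclidean, log2 CPM). Wild type replicates 1 and 3 stood apart from replicates 2 and 4 in stage markers. The summed level of 10 molting genes was 1242 to 2104 CPM in rescue and 618.5 to 1041 CPM in mutant samples, against 2889, 233.5, 1347 and 408.9 CPM in wild type replicates 1 to 4. The summed level of 7 oocyte and yolk genes was 14080 to 25630 CPM in rescue and 15840 to 29560 CPM in mutant samples, against 6673, 24420, 8442 and 21910 CPM in the same wild type replicates. None of these 17 markers was at 0 in any sample, although the samples are labelled mid-L4. In whole worms a smaller share of a tissue and less RNA per cell cannot be told apart.

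*hlh-30* transcripts were higher in both the *raga-1* mutant and the neuronal rescue than in wild type. *hlh-30* had 105, 98.8, 93.99 and 91.8 CPM in rescue replicates 1 to 4. In the mutant it had 92.4, 88.8, 88.9 and 91.5 CPM, against 76.7, 69.0, 77.7 and 69.4 CPM in wild type. Every mutant and every rescue sample lay above every wild type sample, and the rescue and mutant samples overlapped. The means were 97.3 ± 5.76 CPM in rescue, 90.4 ± 1.79 CPM in the mutant and 73.2 ± 4.62 CPM in wild type (SD, n = 4 each). The log2 fold change of mutant over wild type was 0.30 (SE 0.06, edgeR adjusted p = 0.00246), and that of rescue over wild type was 0.41 (SE 0.06, edgeR adjusted p = 0.000233). Between rescue and mutant the difference was 0.11 on the log2 scale, with a 95% interval of -0.02 to 0.23 and an adjusted p of 0.366 (edgeR). On the 3 collection days shared with wild type, *hlh-30* was higher in the mutant on 3 and in rescue on 3. The mutant call was lost with the collection day as a block (log2 fold change 0.26, edgeR adjusted p = 0.0243) and without wild type replicates 2 and 4 (0.23, adjusted p = 0.015), a choice made after the data had been seen.

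**Figure D1:**
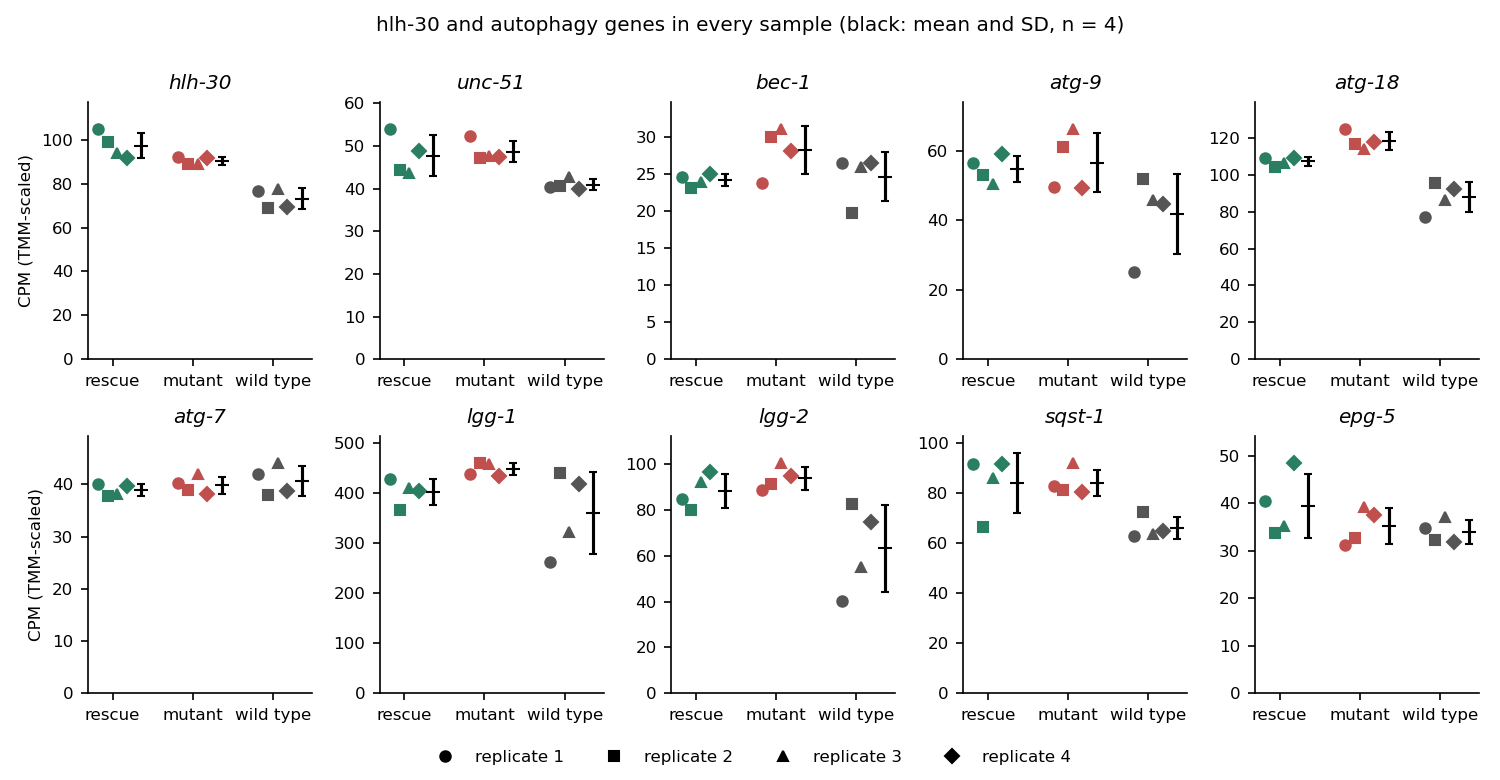
CPM (TMM-scaled, vertical axes from 0) of *hlh-30* and the 9 autophagy genes in each of the 12 samples, with rescue in green, mutant in red and wild type in grey; marker shapes give the replicate number, and black bars the mean ± SD of 4 samples. The rescue and mutant samples of *hlh-30* and *atg-18* all lie above the wild type samples, and *lgg-1*, *lgg-2* and *atg-9* have a wide spread in wild type.

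The summed level of the neuronal markers had the same order of groups as the mean of *hlh-30*, but not every marker did. The summed level of 9 neuronal genes was 558.4 to 604.3 CPM in rescue, 491.2 to 508.5 CPM in the mutant and 421.4 to 456.6 CPM in wild type, without overlap, and none of the 9 was at 0. Of the 9, edgeR called 5 higher in rescue and 2 higher in the mutant, each against wild type, in the mutant *egl-3* and *egl-21*, which encode neuropeptide-processing enzymes. Over the 15728 genes tested, edgeR called 1602 higher and 2119 lower in rescue (23.7% in either direction). In the mutant it called 1001 higher and 1417 lower (15.4%). *unc-104* averaged 29.2 CPM in the mutant against 30.2 CPM in wild type, and *snb-1* averaged 113 CPM in rescue against 115 CPM in the mutant. Sperm markers ran the other way, with a summed level over 10 genes of 526.2 to 634.4 CPM in rescue, 705.2 to 974.5 CPM in the mutant and 1029 to 1402 CPM in wild type. Of 8 germline markers edgeR called 5 lower in rescue and 2 lower in the mutant, again against wild type (*pgl-1* and *glh-1* in both strains), with summed levels of 2638 to 2980 CPM in rescue, 3138 to 3411 CPM in the mutant and 3103 to 3882 CPM in wild type. In the mutant the germline genes *glp-1*, *gld-1* and *cgh-1* went the other way, without a call (log2 fold changes 0.17, 0.16 and 0.10). Of 6 intestinal markers edgeR called 2 higher in the mutant, the intermediate filament genes *ifb-2* (log2 fold change 0.60) and *ifc-2* (0.57). In the mutant *elt-2* (0.06) and *act-5* (0.05) were near 0, and *pept-1* (-0.09) and *ges-1* (-0.23, edgeR adjusted p = 0.0403) were negative. In rescue edgeR called 0 of the 6, with 2 at an unadjusted p under 0.05 and 2 called by DESeq2. The summed intestinal level was 2183 to 2516 CPM in rescue, 2467 to 2686 CPM in the mutant and 1826 to 2490 CPM in wild type. Of 5 muscle markers edgeR called 0 in either strain, with 2 at an unadjusted p under 0.05 in each, and DESeq2 called 1 in rescue and 0 in the mutant. Over all 15728 genes DESeq2 called 4549 in rescue and 3354 in the mutant. The part of these shifts in the *hlh-30* result was not tested. Over the 12 samples the tested genes whose log2 CPM, centred on each gene's mean, differed least from that of *hlh-30* were *Y43C5A.2*, *ZK1320.3*, *sbt-1*, *C49C3.4* and *tos-1*. Their root mean square differences were 0.0447 for *Y43C5A.2*, 0.0470 for *ZK1320.3*, 0.0569 for *sbt-1*, 0.0623 for *C49C3.4* and 0.0632 for *tos-1*, out of 15718 genes compared. Since these genes were picked for closeness to *hlh-30* in the same samples, their order of groups follows from that choice. In rescue, mutant and wild type, *Y43C5A.2* averaged 197.5, 184 and 148.2 CPM and *ZK1320.3* 184.5, 168.4 and 140 CPM. *C49C3.4* averaged 342.8, 323.6 and 264.3 CPM and *tos-1* 623.7, 590.3 and 505.3 CPM. *sbt-1*, at rank 3, encodes the 7B2 chaperone of neuropeptide processing. It averaged 66.5 ± 3.34 CPM in rescue, 58.5 ± 3.76 CPM in the mutant and 48.4 ± 2.16 CPM in wild type (SD, n = 4 each).

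At the start of the pathway, *unc-51*, the worm ULK1 kinase, had 53.9, 44.4, 43.6 and 48.9 CPM in rescue replicates 1 to 4. Its levels were 52.4, 47.2, 47.6 and 47.4 CPM in the mutant, against 40.4, 40.6, 42.8 and 40.0 CPM in wild type. All mutant and rescue samples were above all wild type samples, by a small margin. The log2 fold changes of 0.25 (SE 0.07) for mutant over wild type and 0.22 (SE 0.07) for rescue over wild type did not pass the threshold of 0.01 (edgeR adjusted p = 0.0197 and 0.026). Without rescue replicate 1 the mutant value passed (0.25, edgeR adjusted p = 0.00946).

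*bec-1*, the worm Beclin 1, gave no call in any comparison. Its levels were 24.6, 23.1, 23.8 and 24.9 CPM in rescue samples, 23.7, 30.0, 31 and 28.1 CPM in mutant samples, and 26.4, 19.7, 25.9 and 26.4 CPM in wild type samples. The groups overlapped in every comparison, since mutant replicate 1 lay with the rescue samples and wild type replicate 2 lay below all others. The log2 difference was 0.20 for mutant minus wild type (SE 0.10, edgeR adjusted p = 0.181) and -0.03 for rescue minus wild type (SE 0.10, adjusted p = 0.854).

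*atg-18*, a WIPI-type protein that binds the lipid made by the BEC-1 complex, was higher than in wild type in both strains. It had 109, 104.4, 107 and 109 CPM in rescue replicates and 125, 117, 114 and 118 CPM in mutant replicates, against 77.1, 95.7, 86.3 and 92.1 CPM in wild type replicates. No pair of groups overlapped: each mutant sample was above each rescue sample, and each rescue sample above each wild type sample. The means were 107 ± 2.29 CPM in rescue, 118 ± 4.61 CPM in the mutant and 87.8 ± 8.12 CPM in wild type (SD, n = 4 each). The log2 fold change was 0.43 for mutant over wild type (SE 0.06, edgeR adjusted p = 0.000606) and 0.29 for rescue over wild type (SE 0.06, edgeR adjusted p = 0.0041). The mutant call stood under 23 of 23 alternatives and the rescue call under 15 of 23. The rescue call was lost without wild type replicate 3, or without rescue replicate 1, 3 or 4, with adjusted p between 0.0125 and 0.0157 (edgeR). It was also lost with the replicate number as a block (adjusted p = 0.0113), with a block for the collection day (0.0192), with rescue and wild type fitted alone (0.0155) and without wild type replicates 1 and 3 (0.0239). Rescue minus mutant was -0.14 on the log2 scale, with a 95% interval of -0.28 to -0.002 (edgeR adjusted p = 0.288). The value was lower in rescue on 4 of 4 shared collection days. Of all genes, 16.3% were lower in rescue on every one of these days and 18% were higher.

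*atg-9*, the transmembrane protein whose vesicles seed the membrane, differed 2.06-fold between the highest and the lowest wild type sample, close to the 2.04-fold of *lgg-2*. It had 56.4, 53.1, 50.5 and 59.0 CPM in rescue samples and 49.6, 61.0, 66.2 and 49.2 CPM in mutant samples, against 25.2, 51.8, 45.7 and 44.8 CPM in wild type samples. Wild type replicate 1 was far below the rest, and wild type replicate 2 lay within the range of the other groups. The log2 fold change of mutant over wild type was 0.43 (SE 0.18, edgeR adjusted p = 0.0946), and without wild type replicate 1 it was 0.25 (adjusted p = 0.105). For rescue over wild type the value was 0.38 (SE 0.18, edgeR adjusted p = 0.112), and 0.21 without that library (adjusted p = 0.146).

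*atg-7*, the E1-like enzyme that activates the ubiquitin-like proteins, was at nearly the same level everywhere. It had 40.1, 37.8, 38.2 and 39.8 CPM in rescue samples, 40.3, 38.9, 42.0 and 38.2 CPM in mutant samples, and 42.0, 37.9, 44.0 and 38.7 CPM in wild type samples. The ranges overlapped in all comparisons. The 95% interval of the log2 difference was -0.16 to 0.10 for mutant minus wild type and -0.19 to 0.07 for rescue minus wild type.

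*lgg-1* and *lgg-2* encode the worm members of the ATG8 family that coat the autophagosome. *lgg-1*, the more abundant, had 428, 366, 409 and 404 CPM in rescue replicates 1 to 4. It had 439, 459, 459 and 435 CPM in mutant replicates, against 262, 439, 322 and 417 CPM in wild type replicates. Wild type replicates 1 and 3 were below every other sample, whereas wild type replicates 2 and 4 fell within the range of the mutant or rescue samples. The log2 fold change was 0.31 for mutant over wild type (SE 0.13, edgeR adjusted p = 0.0958) and 0.16 for rescue over wild type (SE 0.13, adjusted p = 0.377). All 4 rescue samples lay below all 4 mutant samples, with a log2 difference of -0.16 (95% interval -0.45 to 0.13, edgeR adjusted p = 0.567).

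*lgg-2* had 84.7, 79.8, 92.2 and 96.2 CPM in rescue samples and 88.4, 91.2, 100.1 and 94.6 CPM in mutant samples, against 40.4, 82.3, 54.9 and 74.8 CPM in wild type samples. Each mutant sample was above each wild type sample, but wild type replicate 2 exceeded rescue replicate 2. The fitted difference had the largest size among the 10 genes, with a log2 fold change of 0.57 for mutant over wild type (SE 0.17, edgeR adjusted p = 0.0284) and 0.48 for rescue over wild type (SE 0.17, adjusted p = 0.0439), and neither passed 0.01. Without wild type replicate 2 the mutant value was 0.71 and passed (edgeR adjusted p = 0.00701).

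The values of *lgg-1* and *lgg-2* followed the split within wild type. With wild type replicates 1 and 3 alone as the reference, *lgg-2* was 0.97 higher in the mutant and 0.89 higher in rescue on the log2 scale (edgeR adjusted p = 0.000125 and 0.000197). With wild type replicates 2 and 4 alone, the *lgg-2* values were 0.25 (adjusted p = 0.0379) and 0.16 (adjusted p = 0.118). *lgg-1* gave 0.62 and 0.46 with wild type replicates 1 and 3 (edgeR adjusted p = 0.000429 and 0.00223), and 0.06 and -0.10 with replicates 2 and 4 (adjusted p = 0.574 and 0.267). These fits were added after the data had been seen. In wild type, *lgg-1*, *lgg-2*, *atg-18* and *sqst-1* were lowest in replicate 1 and then in increasing order in replicates 3, 4 and 2, which is also the order of the summed oocyte and yolk markers and the inverse of that of the molting markers. Replicates 1 and 3 were both below replicates 2 and 4 for these 4 of the 10 genes and both above for 3 (*hlh-30*, *atg-7* and *epg-5*), compared with 31.7% and 31.6% of all genes tested. The part of developmental timing in these levels was not tested.

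**Figure D2:**
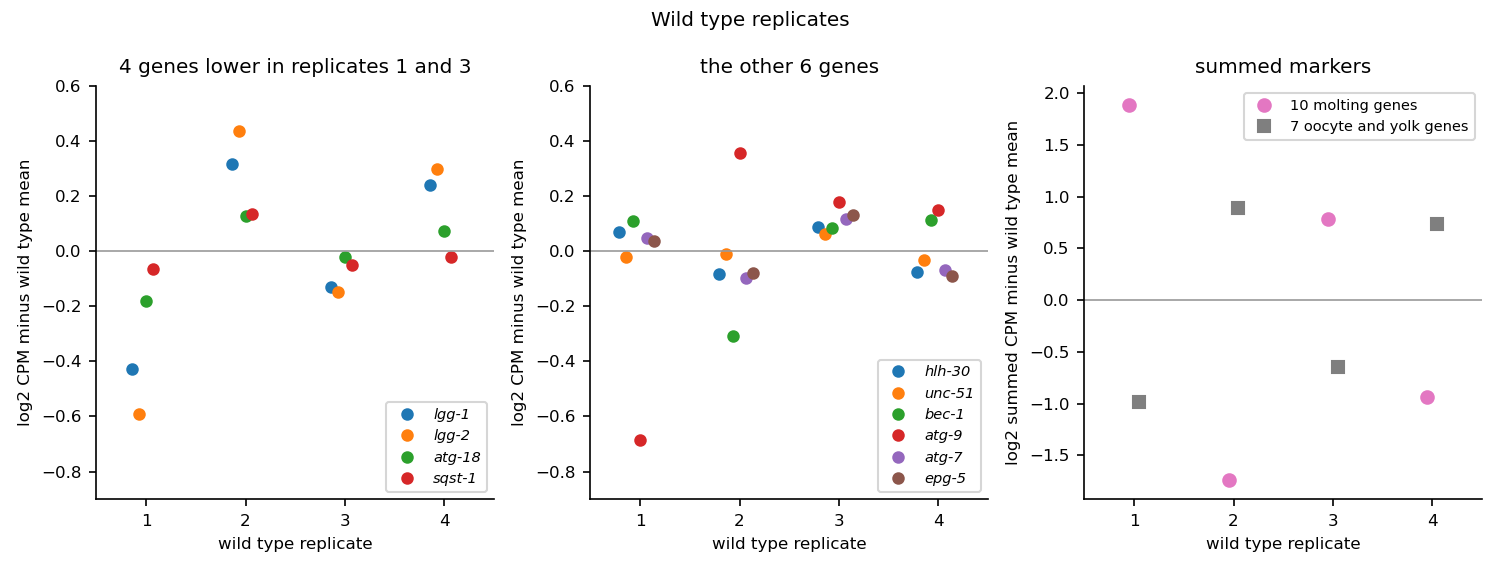
Log2 CPM of each gene in wild type replicates 1 to 4, minus the gene's wild type mean, for the 4 genes that were lower in replicates 1 and 3 (left) and the other 6 genes (middle), and the same for the summed CPM of 10 molting genes and 7 oocyte and yolk genes (right, with its own vertical scale). Replicates 1 and 3 are high for the molting genes and low for the oocyte and yolk genes, *lgg-1* and *lgg-2*.

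*sqst-1*, the worm p62 cargo receptor, did not pass the threshold in any comparison by edgeR, whereas DESeq2 called it in both comparisons with wild type. It had 91.6, 66.3, 86.0 and 91.4 CPM in rescue samples and 82.5, 81.1, 91.7 and 80.5 CPM in mutant samples, against 62.8, 72.3, 63.5 and 64.9 CPM in wild type samples. All mutant samples exceeded all wild type samples, and only rescue replicate 2 fell within the wild type range. The log2 fold change was 0.35 in each comparison with wild type (SE 0.10), with an edgeR adjusted p of 0.0181 for the mutant and 0.014 for rescue, short of 0.01. Without rescue replicate 2 both values passed, with log2 fold changes of 0.35 and 0.44 (edgeR adjusted p = 0.00256 and 0.000713).

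*epg-5*, a tether between autophagosomes and lysosomes, had 40.5, 33.8, 35.2 and 48.4 CPM in rescue samples, 31.3, 32.8, 39.2 and 37.6 CPM in mutant samples, and 34.9, 32.2, 37.3 and 31.9 CPM in wild type samples. The groups overlapped throughout, and rescue replicate 4 was the highest. The log2 fold change was 0.05 for mutant over wild type (SE 0.12, edgeR adjusted p = 0.793) and 0.21 for rescue over wild type (SE 0.12, adjusted p = 0.164).

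Among the 10 genes, 2 were called in the mutant against wild type, *hlh-30* and *atg-18*, both higher, and the same 2 in rescue against wild type. For the mutant this compares with 15.4% of all genes tested in either direction and 6.36% in the higher direction, and for rescue with 23.7% and 10.2%. Counted in either direction, 2 of 10 is thus near the share of all genes. Groups did not overlap for 5 of the 10 genes in mutant against wild type (29% of all genes) and for 3 in rescue against wild type (34.4% of all genes). Relative to wild type, log2 values were positive for 9 of 10 in the mutant (median 0.31, against 0.003 over all genes) and for 8 of 10 in rescue (median 0.26, against 0.04 over all genes). Both comparisons share the wild type samples. Set against the wild type sample of the same collection day, 8 of 10 genes were higher in the mutant on 3 of 3 shared days, all but *atg-7* and *epg-5*, compared with 24.2% of all genes. In rescue this held for 5 of 10, *hlh-30*, *unc-51*, *atg-18*, *lgg-2* and *sqst-1*, compared with 28.1% of all genes. The wild type samples of these days were replicates 1, 2 and 3, so the day-matched counts carry the split within wild type. In that order the log2 differences of mutant minus wild type were 0.81, 0.06 and 0.43 for *lgg-1* and 1.18, 0.28 and 0.79 for *lgg-2*. They were 0.60, 0.25 and 0.45 for *atg-18* and 0.37, 0.34 and 0.34 for *sqst-1*. Tested over the 3 groups at once, 2 of the 10 differed, *hlh-30* (edgeR adjusted p = 0.000589) and *atg-18* (0.000971), and 21.1% of all genes did.

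Between rescue and mutant 0 of the 10 genes were called by edgeR, and 1, *atg-18*, had an unadjusted p under 0.05. DESeq2 also called 0, with 2 under 0.05 before adjustment. Across all genes edgeR called 60 of 15728 (0.381%) and DESeq2 called 320. With rescue and mutant fitted alone, edgeR called 556 of 15535 genes and 0 of the 10. Of the 10, 3 then had an unadjusted p under 0.05. The groups did not overlap for 2 of 10, *atg-18* and *lgg-1*, both lower in rescue, beside 17.7% of all genes. The median log2 difference of the 10 genes was -0.04. The widest 95% interval was that of *atg-9*, -0.44 to 0.34, and the narrowest that of *hlh-30*. Differences of moderate size in *atg-9*, *lgg-1* or *lgg-2* could thus have been missed with these samples.

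**Figure D3:**
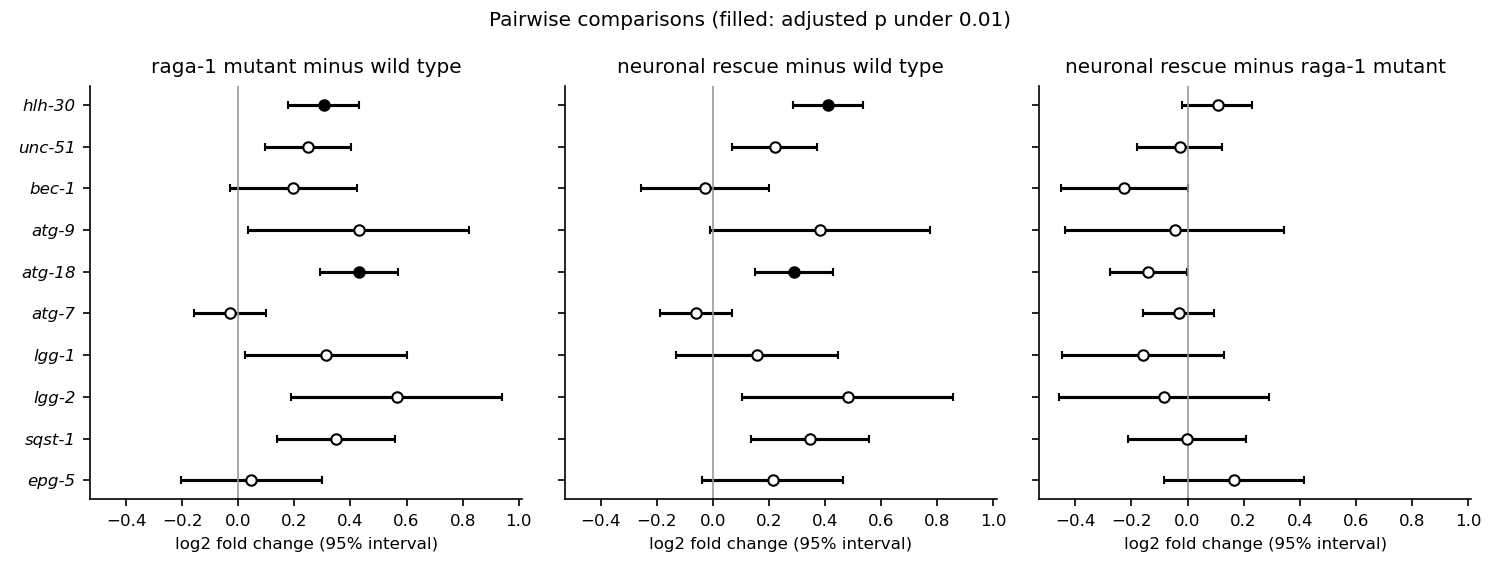
Log2 fold changes with 95% intervals (edgeR, 4 samples a group) of the 10 genes in mutant minus wild type, rescue minus wild type and rescue minus mutant; filled points passed an adjusted p of 0.01. *hlh-30* and *atg-18* are filled in both comparisons with wild type, and no point is filled in rescue minus mutant.

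Per kilobase of exon sequence, *lgg-1* was the most abundant of the 10 in each group, at 567 ± 36.5 CPM per kb in rescue, 633 ± 18.1 in the mutant and 509 ± 117 in wild type (SD, n = 4 each). *lgg-2* followed at 84.9 ± 7.08 CPM per kb in rescue, 90.1 ± 4.87 in the mutant and 60.7 ± 18.3 in wild type. *atg-18* came next, at 59.5 ± 1.27 in rescue, 65.7 ± 2.56 in the mutant and 48.7 ± 4.504 CPM per kb in wild type, and in wild type its level was within 1 SD of that of *lgg-2*. *sqst-1* and *hlh-30* held the following places, with *sqst-1* at 37.2, 37.3 and 29.2 CPM per kb and *hlh-30* at 29.8, 27.7 and 22.4 CPM per kb in rescue, mutant and wild type. *atg-7*, *bec-1*, *unc-51* and *atg-9* lay between 11.7 and 21.1 CPM per kb, and *bec-1* and *atg-7* were within 1 SD of each other in the mutant and in wild type. *epg-5* was lowest, at 5.41 ± 0.91 CPM per kb in rescue, 4.83 ± 0.52 in the mutant and 4.67 ± 0.34 in wild type. *epg-5* shares 8 exon bases with *vps-33.2* on the opposite strand, and the other 9 genes overlap no protein-coding exon.

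Of 37 further autophagy genes in 5 lists, 36 were tested, and *sepa-1*, with 0 to 9 counts a sample, was not. In the mutant 5 of 36 were higher than in wild type and 0 lower, with a median log2 fold change of 0.14. That makes 13.9%, beside 15.4% of all genes called in either direction and 6.36% called higher. In rescue 6 were higher and 0 lower, with a median of 0.21. That makes 16.7%, beside 23.7% of all genes in either direction and 10.2% higher. Between rescue and mutant 0 of 36 were called by edgeR or DESeq2, and 7 (edgeR) or 6 (DESeq2) had an unadjusted p under 0.05. The count in the mutant was 1 without wild type replicate 3 or 4 or mutant replicate 2 or 4, 2 without wild type replicate 1 or mutant replicate 3, and 3 without mutant replicate 1 or rescue replicate 1 or 3. In wild type 19 of the 36 had replicates 1 and 3 both below replicates 2 and 4, compared with 31.7% of all genes.

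Of the genes that act with UNC-51 at initiation, 2 of 3 were called in each comparison with wild type, all higher. Over all genes tested, 6.36% were called higher in the mutant and 10.2% in rescue, and 15.4% and 23.7% in either direction. *atg-101*, a subunit of the kinase complex listed as *epg-9* in the tables, averaged 24.7 ± 1.79 CPM in rescue, 25.1 ± 1.94 CPM in the mutant and 19.7 ± 1.04 CPM in wild type (log2 fold change over wild type 0.33 in rescue and 0.35 in the mutant, edgeR adjusted p = 0.00537 and 0.00531). *atg-11*, a scaffold listed as *epg-7*, averaged 47.8 ± 2.85 CPM in rescue, 42.8 ± 2.66 CPM in the mutant and 34.9 ± 1.78 CPM in wild type (0.46 and 0.30, edgeR adjusted p = 0.000242 and 0.00522). The remaining subunit gene, *atg-13*, had log2 fold changes of 0.34 in rescue and 0.39 in the mutant and missed the threshold (edgeR adjusted p = 0.0149 and 0.0113). Of the lipid kinase complex around BEC-1, 0 of 3 genes (*vps-34*, *vps-15* and *epg-8*) were called by edgeR in either comparison, with 1 at an unadjusted p under 0.05 in each. The closest was *epg-8* in the mutant (0.34, edgeR adjusted p = 0.0136). DESeq2 called 1 of the 3 in the mutant and 0 in rescue, beside 3354 and 4549 of all 15728 genes.

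Of 12 genes of conjugation and membrane growth, 3 were higher in each strain than in wild type. That makes 25%, beside 6.36% of all genes called higher in the mutant and 10.2% in rescue. *atg-16.2*, part of the complex that places LGG-1 on the membrane, averaged 17.5 ± 1.04 CPM in rescue, 15.6 ± 0.59 CPM in the mutant and 12.2 ± 0.21 CPM in wild type (log2 fold change over wild type 0.51 in rescue and 0.35 in the mutant, edgeR adjusted p = 0.00011 and 0.00234). *atg-2*, a lipid transfer protein, rose by 0.45 in the mutant (edgeR adjusted p = 0.00809), and *epg-6*, a relative of *atg-18*, rose by 0.37 (adjusted p = 0.00876). In rescue they missed the threshold, at 0.35 and 0.24 (edgeR adjusted p = 0.0216 and 0.0461). The proteases that trim LGG-1 before conjugation were called in rescue, *atg-4.1* with a log2 fold change of 0.29 (edgeR adjusted p = 0.00175) and *atg-4.2* with 0.48 (adjusted p = 0.00334). In the mutant neither was called, with 0.20 for *atg-4.1* (edgeR adjusted p = 0.0193) and 0.06 for *atg-4.2* (adjusted p = 0.7). Of 6 selective autophagy genes, edgeR called 0 in the mutant and 0 in rescue, with 2 and 1 at an unadjusted p under 0.05, and DESeq2 called 0 and 1. Of 12 genes of tethering and fusion, edgeR called 0 in the mutant, with 4 at an unadjusted p under 0.05 and 3 called by DESeq2. Over all 15728 genes DESeq2 called 3354 in the mutant and 4549 in rescue. In rescue edgeR called 1 of the 12, *vps-11* of the HOPS complex (0.29, edgeR adjusted p = 0.00437).

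Several of these calls lay near the threshold. With each library left out in turn, *atg-16.2* stayed called in 12 of 12 fits in both strains, and *atg-11* and *atg-4.1* in 12 of 12 in rescue. In the mutant *atg-101* was called in 6 of 12 fits, *atg-11* in 7, *atg-2* in 3 and *epg-6* in 1, and no call other than that of *atg-16.2* stood without wild type replicate 3 or 4, or without mutant replicate 2 or 4. In rescue *atg-101* was called in 7 of 12 fits, failing without wild type replicate 1, 3 or 4 or rescue replicate 1 or 3. *atg-4.2* was called in 9, failing without wild type replicate 3 or rescue replicate 2 or 4. *vps-11* was called in 8, failing without wild type replicate 4 or rescue replicate 1, 2 or 4. With the collection day as a block all 5 mutant calls were lost, that of *atg-16.2* at an adjusted p of 0.0297 (edgeR), and *rab-7*, a GTPase of late endosomes, passed instead (log2 fold change 0.31, adjusted p = 0.00619). In rescue the same block ended the calls of *atg-101*, *atg-4.1* and *atg-4.2* (edgeR adjusted p = 0.0428, 0.0137 and 0.015) and left those of *atg-11*, *atg-16.2* and *vps-11*. Without wild type replicates 1 and 3 the *atg-16.2* call in the mutant was also lost.

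**Figure D4:**
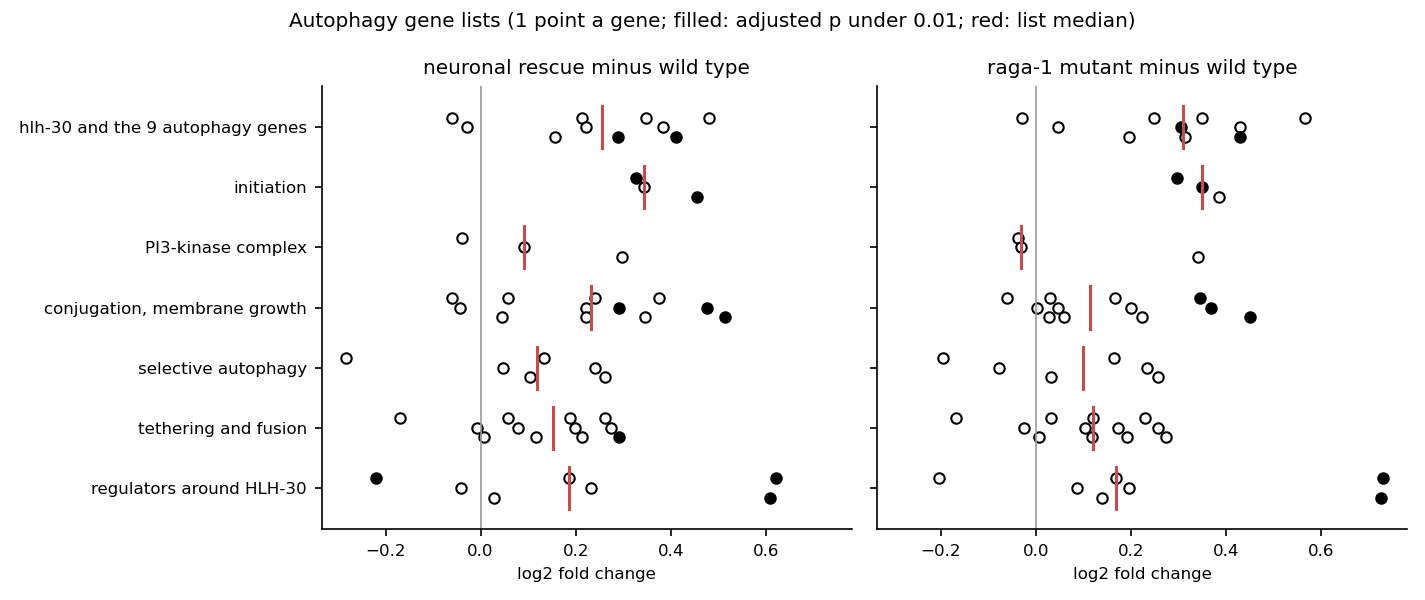
Log2 fold changes of rescue minus wild type (left) and mutant minus wild type (right) for the 10 genes, 5 further autophagy lists and 7 regulators around HLH-30, 1 point a gene; filled points passed an adjusted p of 0.01 and red bars are list medians. The 3 initiation genes are all positive in both panels, and no selective autophagy gene is filled.

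Of 7 regulators around HLH-30, 2 were higher in both strains, beside 6.36% of all genes called higher in the mutant and 10.2% in rescue. In either direction 2 were called in the mutant and 3 in rescue, beside 15.4% and 23.7% of all genes. *pha-4*, a FOXA factor, had 19.4, 16.5, 18.2 and 19.2 CPM in rescue and 18.7, 19.1, 21.6 and 20.5 CPM in the mutant, against 12.5, 11.7, 11.6 and 12.3 CPM in wild type. *mxl-2*, the Mlx-type partner of MML-1, had 16.04, 16.4, 18.7 and 15.2 CPM in rescue and 17.3, 17.6, 17.7 and 18.9 CPM in the mutant, against 8.99, 11.98, 11.0 and 11.1 CPM in wild type. Neither gene had a mutant or rescue sample within the wild type range. The log2 fold changes over wild type were 0.61 in rescue and 0.73 in the mutant for *pha-4* (edgeR adjusted p = 9.96e-05 and 5.26e-05), and 0.62 and 0.73 for *mxl-2* (adjusted p = 0.000404 and 0.000257). *xpo-1*, the exportin that carries HLH-30 out of the nucleus, averaged 265 ± 13.8 CPM in rescue, 267 ± 4.82 CPM in the mutant and 308 ± 14.2 CPM in wild type. Its log2 fold change was -0.22 in rescue, which passed (edgeR adjusted p = 0.00606), and -0.20 in the mutant, which did not (adjusted p = 0.012). The rescue call of *xpo-1* stood in 6 of 12 fits with 1 library left out, failing without wild type replicate 2 or 4, mutant replicate 2, or rescue replicate 1, 2 or 3, and it was lost with the collection day as a block (edgeR adjusted p = 0.0495). *mml-1*, *mxl-3*, *daf-16* and *flcn-1* were not called.

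The lysosomal lipases, some of which HLH-30 is known to activate in fasted worms, differed in direction. *lipl-3* had 1.67, 1.62, 1.98 and 1.54 CPM in rescue and 2.84, 2.30, 1.69 and 1.69 CPM in the mutant, against 0.0725, 0.178, 0.196 and 0.389 CPM in wild type. These wild type values rest on 1, 4, 5 and 10 counts, and rescue samples had 41 to 59 and mutant samples 35 to 81 counts. All rescue and mutant samples lay above all wild type samples. Since the gene passed the filter on low counts only through the groups in which it was high, and was left out by a filter of 10 counts in every sample, its levels are given as a description. *lipl-2* fell by 1.04 in rescue and by 0.88 in the mutant on the log2 scale (edgeR adjusted p = 0.000138 and 0.000735), and *lipl-5* fell by 0.49 and 0.73 (adjusted p = 0.00698 and 0.00112). *lipl-1* passed in rescue (-1.01, edgeR adjusted p = 0.004) and not in the mutant (-0.90, adjusted p = 0.011), and *lipl-4* passed in neither. With 1 library left out the *lipl-2* calls stood in 12 of 12 fits in both strains and that of *lipl-5* in 12 of 12 in the mutant. In rescue the *lipl-5* call stood in 4 of 12, only without wild type replicate 2 or mutant replicate 1, 3 or 4, and the *lipl-1* call in 8 of 12, failing without wild type replicate 4 or rescue replicate 2, 3 or 4. With the collection day as a block only the *lipl-2* calls were kept among those of *lipl-1*, *lipl-2* and *lipl-5*. Between rescue and mutant 0 of 5 lipases and 0 of 7 regulators were called by edgeR or DESeq2, and 0 had an unadjusted p under 0.05.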

How the data were processed

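The authors processed the reads with bcbio-nextgen, aligned them with STAR (Ensembl 94) as a quality check, quantified transcripts by Salmon and summed these per gene by tximport. Versions are not given in the sources used here. The authors deposited expected counts per gene and a normalized signal, in which 1 DESeq2 size factor a sample divides the rounded counts. The expected counts were used here after rounding to whole numbers.

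All 12 samples were fitted with edgeR 4.0.16 (R 4.3.3; quasi-likelihood, filterByExpr, TMM, 1 mean a group, no block), with Benjamini-Hochberg adjustment over 15728 genes and a threshold of 0.01. P-values measure the spread between separate egg lays. Same-numbered rescue and mutant samples share a collection day in the labels, so these numbers pair them (correlations of deviations -0.019, 0.148, -0.143 and 0.01), whereas wild type numbers fall on other days. Genes named are the 10 genes, those of the other lists called in at least 1 pairwise comparison, *raga-1*, the 5 genes nearest to *hlh-30*, and list members said to have missed the threshold or marker genes, chosen after their values were seen. The genes and lists were chosen with earlier results of these data known. Alternatives were DESeq2 1.42.0 and its size factors, library size alone, upper quartile, other filters, blocks, 2 groups only, a threshold of 0.05 and leaving samples out. The method was also run on simulated data without a split within wild type or collection days, so that run does not bear on how the calls depend on these. *allo-1* and *fndc-1* were matched through the annotation (Ensembl release 115, WBcel235), which also gave exon lengths.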

Additional observations from a re-analysis of the deposited data

Results flagged for a closer look

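Each of the 10 genes was looked at in each group of 4 samples for a single library far from the others, by Dixon's test at the 95% level. Chance alone flags about 1 in 20 groups, and 2 of 30 were found. *unc-51* in mutant replicate 1, at 52.4 CPM, lay above the nearest mutant sample, at 47.6 CPM. *bec-1* in wild type replicate 2, at 19.7 CPM, lay below the nearest wild type sample, at 25.9 CPM. Neither gene was called in any comparison by edgeR with all 12 samples.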

How the results depend on the processing

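The rescue call of *hlh-30* and the mutant call of *atg-18*, each against wild type, held under 23 of 23 alternatives. Genes called among the 10 numbered 2 in the mutant against wild type, and 4 with DESeq2, 1 with a block for the collection day and 5 at a threshold of 0.05. In rescue against wild type they numbered 2, and 4 with library size alone, 1 with the replicate block, 1 with the collection day, 1 with the 2 groups alone, 5 at 0.05, 1 without wild type 1 and 3, 4 without wild type 2 and 4, and 1 to 3 when 1 library was left out. For any difference among 3 groups they numbered 2, and 0 with the collection day, 5 at 0.05 and 4 without wild type 2 and 4. Of the other 36 autophagy genes 5 were called in the mutant, and 11 with DESeq2, 2 with library size alone, 8 with the upper quartile, 8 with 10 counts in every sample, 3 with the replicate block, 1 with the collection day, 1 with the 2 groups alone, 12 at 0.05, 2 without wild type 1 and 3, 11 without wild type 2 and 4, and 1 to 6 when 1 library was left out. In rescue 6 were called, and 10 with DESeq2, 3 with the collection day, 16 at 0.05, 11 without wild type 2 and 4, and 4 to 8 when 1 library was left out. Rescue against mutant gave 0 called under all alternatives for the 10 and the 36 genes, the replicate block included. The cause of these shifts was not tested. Calls over all genes also varied with the setting. In the mutant against wild type they numbered 3354 with DESeq2, 4578 at 0.05 and 979 with the collection day, beside 2418. They numbered 2428 with the upper quartile and 4308 of 16046 genes without wild type 2 and 4. In rescue against wild type they numbered 4549 with DESeq2, 6095 at 0.05 and 1862 with the collection day, beside 3721. They were 3288 with library size alone and 4278 without wild type 2 and 4. Across all genes the replicate block called 1961 in the mutant against wild type, beside 2418 without it, 3234 in rescue against wild type, beside 3721, and 34 in rescue against mutant, beside 60. Library size alone moved the median log2 fold change of all genes in rescue against wild type to 0.14 and the share of calls that were higher to 65.1%, beside 0.04 and 43.1%; in the mutant that share was 50.1%, beside 41.4%.

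Signs turned only for genes without a call. In the mutant against wild type, *atg-7* was 0.004 with library size alone and 0.048 without wild type 1 and 3, and *epg-5* was -0.035 without wild type 2 and 4. In rescue against wild type, *bec-1* was 0.071 with library size alone, 0.05 with the collection day and 0.053 without wild type 1 and 3, *atg-7* was 0.037 and 0.017 with library size alone and without wild type 1 and 3, and *lgg-1* was -0.10 without wild type 1 and 3. In rescue against mutant, library size alone gave 0.036 for *unc-51*, 0.015 for *atg-9*, 0.033 for *atg-7* and 0.062 for *sqst-1*, which was 0.006 with the upper quartile and 0.008 with 10 counts in every sample. With 1 library left out, log2 values ran between -0.063 and 0.011 for *atg-7* and between -0.009 and 0.092 for *epg-5* in the mutant, between -0.123 and 0.008 for *bec-1* in rescue against wild type, and, in rescue against mutant, between -0.091 and 0.016 for *unc-51*, -0.107 and 0.038 for *atg-9* and -0.047 and 0.095 for *sqst-1*. With 4 samples a group, small differences in the genes without a call could have been missed.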
